A study of Mus musculus with 4 samples.

Results

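The T and NK cell cytotoxic genes described here are 10 genes, Cd3e, Cd3g, Trac, Klrk1, Ncr1, Nkg7, Gzma, Gzmb, Prf1 and Ccl5, found by their symbols among the 32285 features of spatial RNA libraries from tibial muscle. They were chosen by name, with earlier results of these data known, and not by a threshold on their values. All 10 were found. The libraries were 10x Genomics Visium libraries, in which RNA of a frozen section is captured on an array of barcoded spots and counted as unique molecular identifiers (UMIs). The mice were Nse-Bmp4 animals on a C57BL/6 background, 6-8 weeks old, in which the neuron specific enolase promoter drives a Bmp4 transgene and bone forms in soft tissue after injury, as in fibrodysplasia ossificans progressiva. Groups were uninjured muscle (day 0) and muscle taken 1, 3 and 7 days after injury, which the methods of the study describe as a cardiotoxin injection. All 4 groups carried the transgene, so the libraries hold no muscle from animals without it. Each day had 1 section. Per the labels, 3 muscles were combined for a group, and how they were placed on a section was not stated in the sources used here.

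Cytotoxic lymphocytes kill a target cell by releasing granules onto it. Perforin (Prf1) opens the membrane, and the serine proteases granzyme A (Gzma) and granzyme B (Gzmb) enter and cleave proteins inside, while Nkg7 is a protein of the granule membrane. NK cells recognise stressed cells with NKp46 (Ncr1) and NKG2D (Klrk1), which is also found on cytotoxic T cells, whereas T cells recognise antigen with a receptor whose alpha chain constant region is Trac and whose signalling chains include Cd3e and Cd3g. Ccl5 is a chemokine made by activated T and NK cells and also by macrophages and stromal cells, so it is the least restricted of the 10 genes.

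With 1 section per day there was no spread between animals to measure, so no comparison has a p-value, and every interval is a 95% exact interval that covers counting error only (Poisson for a UMI sum, conditional binomial for a ratio, Clopper-Pearson for a share of spots). The sections held 2107, 2667, 3029 and 3032 spots and 43871586, 16777832, 56113066 and 41832640 UMIs at days 0, 1, 3 and 7. The day 1 section was the shallowest, with a median of 6322 UMIs per spot against 21029 at day 0. Levels are given as counts per 1000000 UMIs of the section (CPM), and 3 UMIs, the limit that a count of 0 allows, correspond to 0.0684, 0.179, 0.0535 and 0.0717 CPM at days 0, 1, 3 and 7. Genes of adult myofibres took 22.3%, 11.7%, 7.09% and 13.0% of the UMIs at these days, and their part in the CPM of other genes was not tested beyond the other scalings given in the closing part. Of the 4078 barcodes seen in any section, 1341 were seen in all 4, since the arrays share 1 barcode set. A spot covers several cells, and a summed count cannot tell more cells of a type from more RNA per cell.

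Summed over the 10 genes, there were 77, 96, 1914 and 808 UMIs in the sections of days 0, 1, 3 and 7. The day 3 section was the highest of the 4, 19.4-fold above day 0 (15.5 to 24.7) and 5.96-fold above day 1 (4.85 to 7.40). Day 7 lay between, 11.0-fold above day 0 (8.70 to 14.1) and at 0.566 of the day 3 level (0.521 to 0.615). Day 1 was 3.26-fold above day 0 (2.39 to 4.46), which came mainly from Ccl5 and Klrk1, described with their groups. The order of days 0, 3 and 7 was the same for each of the 10 genes taken alone, with day 3 the highest in CPM and day 0 the lowest, although for Cd3e, Trac and Prf1 the interval of day 7 over day 3 included 1.

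**Figure D1:**
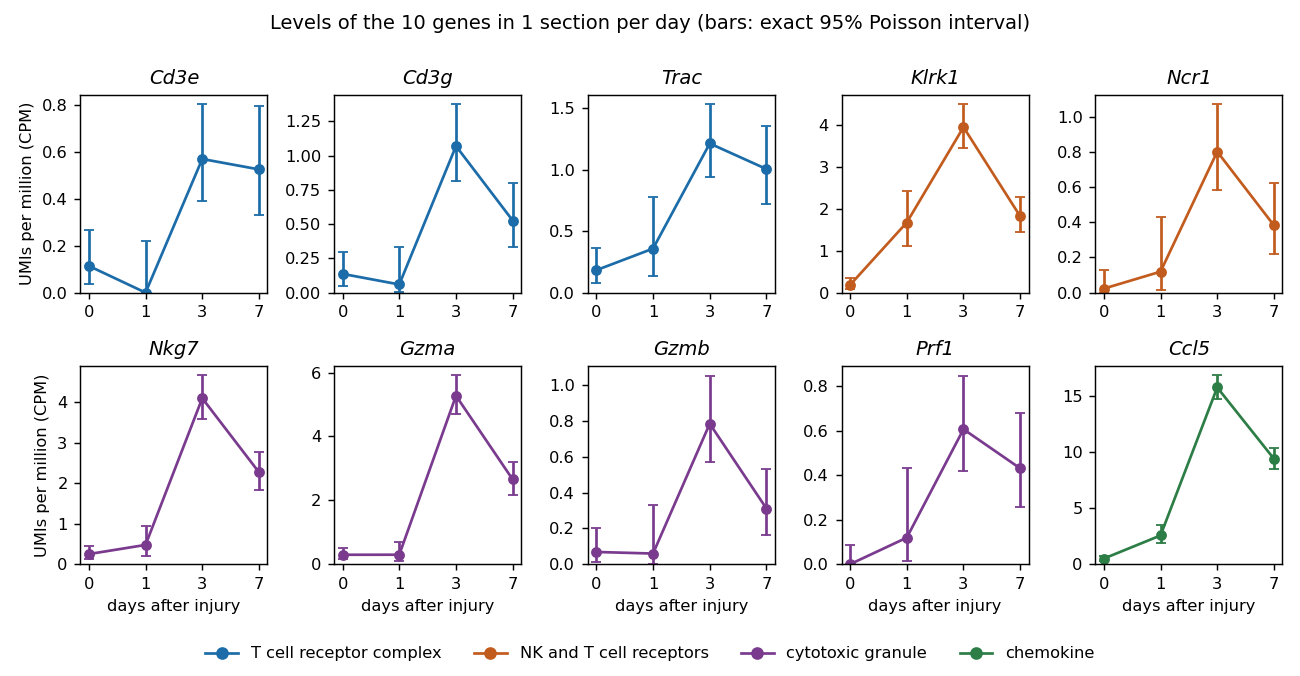
Levels of the 10 genes by section, in CPM with a linear axis of its own for each gene, against days after injury; points are single sections joined by lines, colours are the 4 roles, and bars are exact Poisson 95% intervals that cover counting error only. Each gene is highest at day 3, with Ccl5 at 15.8 CPM and Gzma at 5.28 CPM there.

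The T cell receptor complex genes gave fewer than 10 UMIs each in uninjured muscle and more after injury, by day 3. Cd3e (chr9:44998735-45009663, RefSeq on GRCm38.p6, as for the other genes) gave 5, 0, 32 and 22 UMIs on the 4 days in turn. Cd3g (chr9:44969572-44980431), its partner in the CD3 complex, gave 6, 1, 60 and 22 UMIs. Trac (chr14:54220521-54224198), the constant region of the receptor's alpha chain, gave 8, 6, 68 and 42 UMIs. Days 3 and 7 thus held more UMIs of each gene than days 0 and 1. In CPM, Cd3e was 5.00-fold (1.94 to 16.4), Cd3g 7.82-fold (3.39 to 22.1) and Trac 6.65-fold (3.19 to 16.0) higher at day 3 than at day 0. The 3 genes together were 6.58-fold (4.08 to 11.2) higher at day 3 and 4.75-fold (2.86 to 8.26) higher at day 7, while at day 1 the ratio of 0.963 had an interval from 0.342 to 2.39, so no difference from day 0 was detectable at this depth. From day 3 to day 7, Cd3g was at 0.492 of its level (0.287 to 0.814), whereas Cd3e, at 0.922 (0.511 to 1.64), and Trac, at 0.828 (0.550 to 1.23), did not differ beyond counting error.

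Klrk1 was, beside Ccl5, the member already higher in the section of day 1. Klrk1 (chr6:129610323-129623903) gave 8, 28, 221 and 76 UMIs on the 4 days, which is 0.182, 1.67, 3.94 and 1.82 CPM. The day 1 level was 9.15-fold above day 0 (4.06 to 23.2), the day 3 level 21.6-fold (10.8 to 50.7) and the day 7 level 9.96-fold (4.81 to 23.9), so days 1 and 7 had nearly the same CPM with overlapping intervals. Ncr1 (chr7:4337715-4345184), whose protein marks NK cells and some innate lymphoid cells, gave 1, 2, 45 and 16 UMIs. Its day 1 level could not be told from day 0 (5.23-fold, 0.272 to 309), and its day 3 level was 35.2-fold above day 0 with an interval as wide as 6.00 to 1420, since the day 0 count was 1 UMI. Both receptors were lower at day 7 than at day 3, Klrk1 at 0.461 (0.351 to 0.601) and Ncr1 at 0.477 (0.252 to 0.860) of the day 3 level.

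Each granule gene gave at most 13 UMIs at days 0 and 1 and at least 34 at day 3. Gzma (chr13:113093824-113100981) gave 13, 5, 296 and 111 UMIs at days 0, 1, 3 and 7. Its level was 17.8-fold above day 0 (10.2 to 33.8) at day 3 and 8.95-fold (5.03 to 17.3) at day 7. Nkg7 (chr7:43437138-43438246) gave 11, 8, 230 and 95 UMIs and was 16.3-fold (8.97 to 33.2) and 9.06-fold (4.84 to 18.8) higher than at day 0 on these days. Gzmb (chr14:56258836-56262334) gave 3, 1, 44 and 13 UMIs, and Prf1 (chr10:61297751-61304684) gave 0, 2, 34 and 18. Gzmb was 11.5-fold higher at day 3 than at day 0, with an interval of 3.68 to 57.7. Prf1, with no UMI at day 0, was at least 8.86-fold higher at day 3 and at least 6.29-fold higher at day 7 when 3 UMIs were set as its day 0 count. At day 1 neither Gzma, at 1.01 of its day 0 level (0.281 to 3.01), nor Nkg7, at 1.90 (0.664 to 5.19), differed from day 0 beyond counting error. The granule genes together were 11.3-fold higher at day 3 than at day 1 (6.89 to 19.9), and at day 7 they were at 0.526 of the day 3 level (0.451 to 0.613). The granzyme genes are a family of related sequences, and reads that fit more than 1 of them could be assigned to the wrong member or dropped.

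The bases ahead of the annotated starts of the 4 granule genes are shown as a description. They were read from the RefSeq promoter table (GRCm38.p6, the assembly of the mm10 build that the submitters' processing notes name). Whether these genes share regulation was not tested. Each is the gene's strand, 5′ to 3′, and capitals mark the matches to the motifs described next. The window of Gzma is chr13:113100982-113101231 (minus strand), that of Gzmb chr14:56262335-56262584 (minus strand), that of Nkg7 chr7:43436888-43437137 (plus strand) and that of Prf1 chr10:61297586-61297750 (plus strand, the 165 bases of the window that lie outside the gene model).
Gzma: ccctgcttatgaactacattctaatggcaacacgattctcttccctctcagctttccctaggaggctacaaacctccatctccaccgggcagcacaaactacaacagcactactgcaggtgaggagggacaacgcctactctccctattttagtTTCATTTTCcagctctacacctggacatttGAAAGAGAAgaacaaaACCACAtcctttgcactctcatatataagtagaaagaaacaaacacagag
Gzmb: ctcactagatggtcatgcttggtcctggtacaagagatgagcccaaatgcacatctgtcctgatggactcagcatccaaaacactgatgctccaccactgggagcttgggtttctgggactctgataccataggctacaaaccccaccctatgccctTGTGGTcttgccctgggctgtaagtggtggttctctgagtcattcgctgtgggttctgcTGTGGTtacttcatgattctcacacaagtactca
Nkg7: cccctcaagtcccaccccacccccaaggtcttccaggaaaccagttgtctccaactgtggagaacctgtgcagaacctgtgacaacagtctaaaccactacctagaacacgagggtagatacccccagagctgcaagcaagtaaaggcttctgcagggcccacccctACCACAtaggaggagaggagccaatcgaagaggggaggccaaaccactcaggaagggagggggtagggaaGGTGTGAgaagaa
Prf1: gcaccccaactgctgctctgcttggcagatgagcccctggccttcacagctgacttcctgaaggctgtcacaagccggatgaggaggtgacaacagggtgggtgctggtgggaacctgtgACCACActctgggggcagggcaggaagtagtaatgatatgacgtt

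The motifs were an interferon response element (GAAANNGAA), a Runx-like site (TGTGGT), a T-box-like site (GGTGTGA) and an NF-kB-like site (GGANTTTCC), searched on both strands of the 250 bases ahead of the start. Of the 10 genes, 8 had a window in the table, and Ccl5 and Trac had none. The Runx-like letters, reading ACCACA where they lie on the other strand, were in the windows of 6 of these 8 genes, namely Gzma, Gzmb, Nkg7, Prf1, Klrk1 and Ncr1, and in 14.0% of all 32851 windows. In Gzmb they occurred at 2 places, ending 29 and 88 bases before the start. The interferon response letters were in the windows of Gzma and Klrk1 and in 7.13% of all windows. Gzma had 2 such matches, 1 on each strand, beginning 96 and 66 bases before the start. The T-box-like letters were in the window of Nkg7 alone among the 8 and in 3.33% of all windows, and the NF-kB-like letters were in none of the 8 and in 1.07% of all windows. No 2 of the matches printed overlap. A match says only that these letters are present.

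Ccl5 was higher than at day 0 in every injured section. The gene (chr11:83525778-83530518) gave 22, 43, 884 and 393 UMIs on the 4 days, which is 0.501, 2.56, 15.8 and 9.39 CPM. The intervals of these 4 levels did not overlap. The ratios to day 0 were 5.11 (2.99 to 8.97), 31.4 (20.6 to 50.4) and 18.7 (12.2 to 30.2) on days 1, 3 and 7. At day 7, 52 of the 393 Ccl5 UMIs came from 1 spot, against a highest spot of 31 of 884 at day 3. Without Ccl5 the other 9 genes were 2.52-fold (1.69 to 3.74), 14.6-fold (11.2 to 19.6) and 7.91-fold (5.96 to 10.7) above day 0 at days 1, 3 and 7.

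Many other features also moved between sections, and the counts of members are read against that background. The members were chosen with earlier results of these data known, so the counts describe the set and are not independent support. A feature entered a comparison with at least 10 UMIs over its 2 sections, and counts under 3 UMIs were set to 3. At day 1, Ccl5 and Klrk1 were at least 2-fold above day 0, against 17.4% of the 15091 features that entered. Nkg7, Gzma and Trac entered and stayed under 2-fold, and Gzmb, Prf1, Ncr1, Cd3e and Cd3g had too few UMIs to enter. At day 3, 10 of 10 members were at least 2-fold higher than at day 0, where the background was 33.3% of 16281 features, and all 10 were also at least 4-fold higher. At day 7, 10 of 10 passed the same fold against a background of 32.7% of 16092 features, and 9 passed 4-fold. Gzmb, Prf1 and Ncr1, with at most 3 UMIs at day 0, entered only through the later day. The filter then all but fixed that they passed 2-fold, so they add no support to these counts. Day 3 over day 1 gave 10 of 10, with a background of 18.1%. There, Gzmb, Prf1, Ncr1, Cd3e and Cd3g had at most 3 UMIs at day 1 and entered only through day 3. From day 3 to day 7, 4 of 10 members were at least 2-fold lower (Klrk1, Ncr1, Gzmb and Cd3g), against 11.8% of features. The median log2 ratio to day 0 over the 10 genes was 3.54 at day 3 and 2.57 at day 7, where the medians over all features that entered were 0.58 and 0.65.

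The make-up of the set differed between sections. Among the 53 UMIs of the 9 genes other than Ccl5 at day 1, Klrk1 held 52.8% (38.6 to 66.7), against 14.5% (6.50 to 26.7) of 55 UMIs at day 0, 21.5% (19.0 to 24.1) of 1030 at day 3 and 18.3% (14.7 to 22.4) of 415 at day 7. The granule genes held 30.2% of these UMIs at day 1 and 58.6% at day 3. The ratio of Klrk1 to Gzma was 7.48-fold higher at day 1 than at day 3 (2.79 to 25.2), and that of Klrk1 to Nkg7 3.63-fold higher (1.57 to 9.43). Against Ncr1 the same change was 2.84-fold with an interval of 0.675 to 25.5, so it was not detectable at this depth. These pairs were picked after their values had been seen. The T cell receptor complex held 15.5% (13.4 to 17.9) of the day 3 UMIs and 20.7% (16.9 to 24.9) of the day 7 UMIs, and Trac over Gzma was 1.65-fold higher at day 7 than at day 3 (1.03 to 2.62). Ccl5 held 28.6% of the UMIs of all 10 genes at day 0 and 44.8%, 46.2% and 48.6% at days 1, 3 and 7.

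**Figure D2:**
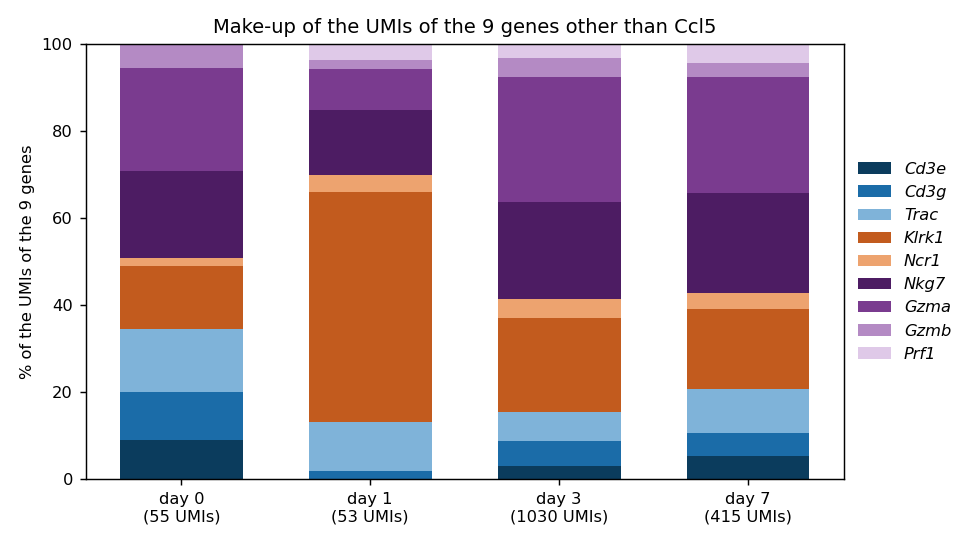
Share of each gene, in percent, among the UMIs of the 9 genes other than Ccl5, with 1 bar per section and the number of UMIs under it. Klrk1 takes 52.8% at day 1 and at most 21.5% in the other sections, while the granule genes take 58.6% at day 3 and 57.1% at day 7.

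Across the tissue, UMIs of the 10 genes lay in few spots. At least 1 UMI of any of them was found in 60 spots of the day 0 section (2.85%), 79 of day 1 (2.96%), 830 of day 3 (27.4%) and 387 of day 7 (12.8%). Had the UMIs been spread over spots in proportion to depth, 75.3, 93.6, 1312 and 675 spots would have held one, so the observed UMIs were gathered into fewer spots, most of all at days 3 and 7. With each spot thinned to 2000 UMIs to even out depth, which left out 17, 513, 9 and 84 spots, the shares were 0.447% (0.197 to 0.816) before injury and 1.28% (0.866 to 1.87), 4.97% (4.22 to 5.80) and 2.34% (1.83 to 2.95) on the injured days in turn. Their order followed the CPM. The thinned share for the granule genes was 1.73% at day 3 (1.29 to 2.25) and 0.723% at day 7 (0.442 to 1.09), and that for the T cell receptor complex was 0.495% (0.278 to 0.818) and 0.321% (0.140 to 0.579). The 28 Klrk1 UMIs of day 1 lay in 28 different spots. Most positive spots held 1 member alone, 580 at day 3 and 306 at day 7, and the most members found in a spot was 8, on both days. No spots known to lack these cells were available as a measure of stray RNA, and the lowest region at day 3, described with the regions, had a member UMI in 6.94% of its spots.

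**Figure D3:**
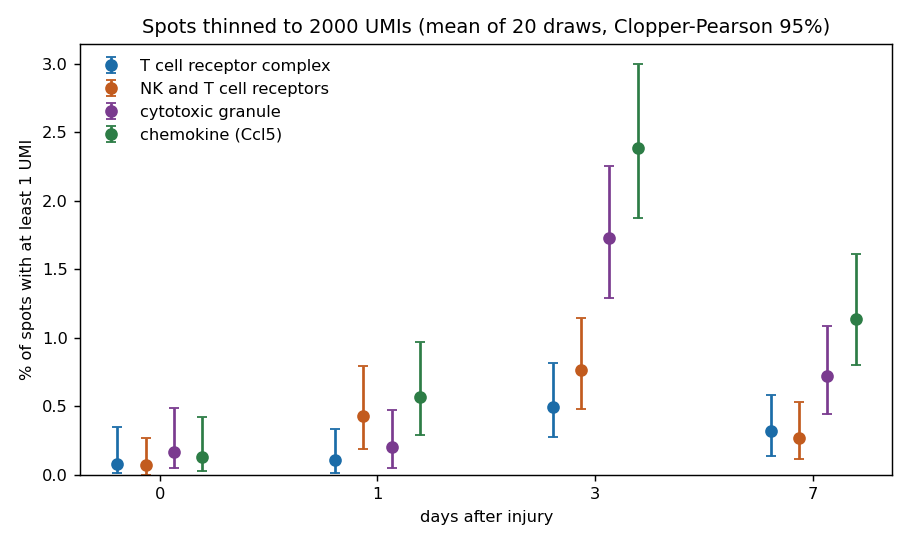
Percent of spots with at least 1 UMI of each group of genes after thinning every spot to 2000 UMIs, by days after injury; points are means of 20 random draws and bars are exact Clopper-Pearson 95% intervals. The T cell receptor complex, the granule genes and Ccl5 are highest at day 3, at 0.495%, 1.73% and 2.38%, and the receptors Klrk1 and Ncr1 are highest there too.

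Several pairs of genes or groups met in the same spots more often than depth alone would place them there. This yardstick, the number of shared spots if each gene were spread by spot depth, was chosen after the values had been seen. At day 3, T cell receptor complex and granule UMIs shared 51 spots where depth gave 35.5, a ratio of 1.44 (1.07 to 1.89). At day 7 they shared 22 spots where depth gave 8.81, a ratio of 2.50 (1.57 to 3.78). The T cell receptor complex and the receptors Klrk1 and Ncr1 shared 30 spots against 17.1 at day 3 and 14 against 3.57 at day 7. Within the NK and granule genes, Nkg7 and Gzma shared 53 spots against 26.6 at day 3, a ratio of 1.99 (1.49 to 2.61), and Nkg7 and Ncr1 16 against 4.33 (3.70, 2.11 to 6.00). Gzmb and Prf1 shared 6 spots against 0.661 (9.08, 3.33 to 19.8). At day 7, Nkg7 and Ncr1 shared 7 spots against 0.701, a ratio of 9.98 (4.01 to 20.6). Ccl5 and the granule genes shared 145 spots against 163 at day 3 (0.889, 0.750 to 1.05) and 42 against 36.7 at day 7 (1.14, 0.824 to 1.55). The yardstick overstates what depth gives for Ccl5 and for the granule genes, because the UMIs of both were gathered in fewer spots than depth alone would give. At day 3, Ccl5 lay in 473 spots where depth gave 733, and the granule genes in 360 where depth gave 530. With spots thinned to 2000 UMIs at day 3, Ccl5 and the granule genes shared 5.90 spots on average, 4.74 times the product of their separate shares, and the T cell receptor complex and the granule genes shared 1.10 spots, 4.25 times the product. These thinned numbers rest on few spots, and no difference between Ccl5 and the other genes in sharing spots is read from them.

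RNA of other immune cells was also higher in the spots that held these genes. At day 3, in the 132 spots with a T cell receptor complex UMI, other T cell receptor and signalling genes (such as Cd3d, Trbc2 and Lck) were 4.93-fold higher in CPM (4.04 to 6.00) than in spots with no member UMI. In the 376 spots with a granule or Ncr1 UMI, other NK cell receptor and factor genes (such as Klrd1, Klra7 and Cd244a) were 4.69-fold higher (4.06 to 5.41). The 2 kinds of spot, which share 51 spots through the granule genes alone, were not told apart by these lists, since the NK list was also 4.26-fold higher (3.48 to 5.18) in the T cell receptor complex spots. Interferon-stimulated genes, such as Isg15 and Rsad2, were 4.38-fold (4.14 to 4.63) and 3.89-fold (3.73 to 4.06) higher in the 2 kinds of spot. Monocyte/macrophage genes were higher by less, 1.86-fold (1.84 to 1.88) and 1.81-fold (1.80 to 1.83), and adult myofibre genes were at 0.36 and 0.42 of their level in spots with no member UMI. Spots with a member UMI were also deeper, with a median of 22762 UMIs against 13768 at day 3 and 19578 against 11222 at day 7. When spots were thinned to 2000 UMIs first, the macrophage ratios at day 3 were 1.52 and 1.60 and the interferon ratios 4.67 and 4.47.

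At day 7 the interferon-stimulated genes were again higher, 4.31-fold (3.97 to 4.67) in the 73 T cell receptor complex spots and 3.15-fold (2.95 to 3.37) in the 163 granule or Ncr1 spots. Thinning took these ratios to 1.87 and 2.54, on 8.45 and 22.1 spots on average. Lymphocyte chemokines and their receptors were 7.19-fold (6.39 to 8.07) and 4.80-fold (4.33 to 5.31) higher, or 2.03-fold and 3.55-fold after thinning. Chondrogenic genes, such as Acan and Col2a1, were at 1.02 of the level of spots with no member UMI (0.99 to 1.06) in T cell receptor complex spots and at 0.67 (0.65 to 0.69) in granule or Ncr1 spots. After thinning, on the same 8.45 and 22.1 spots on average, these values were 2.05 and 0.860. The level in T cell receptor complex spots thus changed with the thinning, which also changed the spots in the class, and the cause was not tested. B cell genes were at 0.72 and 0.80 and mast cell genes at 0.61 and 0.75, but in granule or Ncr1 spots thinning turned both above 1, to 1.15 and 1.54. In the 28 spots with a Klrk1 UMI at day 1, interferon-stimulated genes were 4.35-fold (3.57 to 5.25) and monocyte/macrophage genes 1.58-fold (1.45 to 1.73) higher, and the NK list was 3.52-fold higher on 5 UMIs (1.12 to 8.47). The part of depth in these ratios was not tested beyond the thinning.

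**Figure D4:**
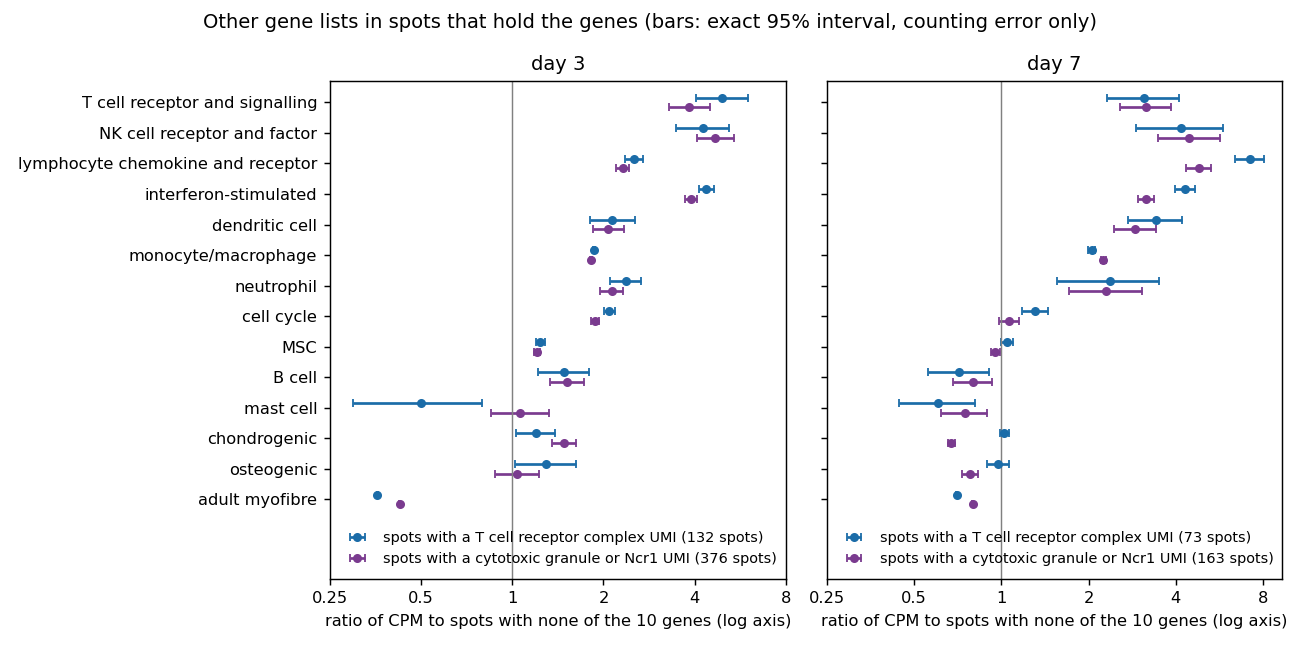
Ratio of the CPM of each gene list in spots with a T cell receptor complex UMI, and in spots with a granule or Ncr1 UMI, to its CPM in spots with no UMI of the 10 genes, at days 3 and 7, on a log axis with exact conditional binomial 95% intervals. Of the lists drawn, the T cell receptor, NK cell and interferon lists lie furthest to the right at day 3, and adult myofibre genes lie left of 1 at 0.36 and 0.42.

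Outside the lists, the 5 features most enriched in these spots were taken by a fixed rule. At day 3 the first in both kinds of spot was Ms4a4b, a membrane protein of T and NK cells, 9.26-fold (6.69 to 12.8) in the 132 T cell receptor complex spots and 9.02-fold (6.81 to 12.0) in the 260 spots with an Ncr1, Gzma, Gzmb or Prf1 UMI. The others were interferon-induced or immune genes, Phf11a, Ifit2, Cmpk2 and Ifi206 in the former and Ifit2, Phf11a, Cmpk2 and Ifit3b in the latter. At day 7 the leading features changed. In the 73 T cell receptor complex spots they were Bcl2a1b, Ccl22, Mmp12, Ighg2c and Ifit2, with Ccl22, a chemokine of dendritic cells and macrophages, at 8.91-fold (5.41 to 14.3). The 73 spots together held 29 UMIs of Ighg2c, 64 of Mmp12, 29 of Ifit2 and 27 of Ccl22. The richest single spot of the whole section held 27, 41, 15 and 13 of these in turn. Whether that spot was among the 73 was not worked out, so single spots may carry much of these ratios. In the 109 Ncr1, Gzma, Gzmb or Prf1 spots they were Mmp12, Spp1, Atp6v0d2, Bcl2a1b and Itgax. Mmp12, a macrophage metalloelastase, was at 11.8-fold (9.26 to 15.1), and Spp1, osteopontin, at 11.5-fold (10.7 to 12.3). These 109 spots held 138 UMIs of Mmp12 and 1599 of Spp1, and the richest single spot of the whole section held 41 and 392. The intervals cover counting error only and not such gathering in single spots.

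Regions of each section were made by clustering its spots with the 10 genes and all lists left out, and are called by number and leading genes. At day 3 the members were most abundant in region 3, led by Spp1, Dhrs9 and Mmp12, which had 435 spots and 18.1% of the UMIs of the section. It held 848 of the 1914 member UMIs (44.3%), at 83.7 CPM (78.2 to 89.6), and 61.1% of its spots had a member UMI before thinning. This region was also the richest in monocyte/macrophage RNA. Against the rest of the section, the members were 3.61-fold higher there (3.30 to 3.96), with Gzma at 4.30-fold (3.40 to 5.44), Ccl5 at 3.75-fold (3.28 to 4.29), Ncr1 at 3.63-fold (1.91 to 6.81), Cd3e at 3.53-fold (1.63 to 7.51) and Gzmb at 2.59-fold (1.31 to 4.96). The T cell receptor complex, at 3.44-fold (2.48 to 4.76), and the granule genes, at 3.45-fold (2.93 to 4.07), did not differ in this. With finer regions (resolution 1), the macrophage-richest region had 216 spots, and there Gzma was 2.26-fold (1.69 to 2.99), the granule genes 2.07-fold (1.69 to 2.53) and the T cell receptor complex 2.82-fold (1.93 to 4.06) higher than elsewhere. Gzmb, with 3 UMIs, was at 0.599 (0.119 to 1.88) there, so no direction could be told for it in the finer region. Region 5, whose leading genes included Mest and the muscle differentiation factor Myog, came next with 525 member UMIs and 45.8 CPM. Regions 1, 2, 6, 7 and 8 lay between 14.4 and 22.9 CPM. The lowest was region 4 with 31 member UMIs and 6.97 CPM, so that the highest and lowest regions differed 12.0-fold (8.40 to 17.8).

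At day 7 the members were no longer highest where macrophage RNA was richest. That region, region 5, led by Mmp12, Atp6v0d2 and Gpnmb, held 152 of 808 member UMIs, at 1.34-fold (1.11 to 1.60) the level of the rest. The granule genes were 1.54-fold (1.10 to 2.12) and the T cell receptor complex 1.32-fold (0.714 to 2.29) higher there, the latter within counting error. The highest level was in region 2, led by Odf3l2, Krt18 and Angptl7, with 419 member UMIs (51.9%) at 33.6 CPM (30.5 to 37.0). Region 6, led by Wfdc21 and Cyp2e1, came next with 63 member UMIs at 26.3 CPM (20.2 to 33.6), so that its interval overlapped those of regions 2 and 5. For the granule genes alone, region 2, at 10.3 CPM (8.56 to 12.2), and region 5, at 8.09 CPM (6.00 to 10.7), did not differ beyond counting error. Klrk1 gave 38 UMIs in region 2 and 0 in region 1, which had 22.6% of the UMIs of the section. The region led by the cartilage gene Col10a1 together with Meltf and Dlx5, region 4, held 55 member UMIs at 13.3 CPM (9.98 to 17.3). In it the granule genes gave 7 UMIs, or 1.69 CPM (0.678 to 3.48), and the T cell receptor complex 11, or 2.65 CPM (1.32 to 4.74), where region 2 had 2.73 CPM (1.89 to 3.81) of the latter.

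In the sections before day 3 the counts were low. At day 1, the region richest in macrophage RNA, region 5, led by Retnla, Slfn4 and Clec10a, held 25 of the 96 member UMIs, 3.42-fold the level of the rest (2.07 to 5.46). Klrk1 accounted for 11 of them, at 6.28-fold (2.66 to 14.2), and the granule genes for 1. At day 0, region 5, led by Cytl1 and Sfrp4, held 13 of 77 member UMIs, 2.38-fold the rest (1.20 to 4.36). Ccl5 gave 7 of the 13, at 5.47-fold (1.89 to 14.2), and the other 9 genes, at 1.43-fold (0.502 to 3.35), did not differ beyond counting error.

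**Figure D5:**
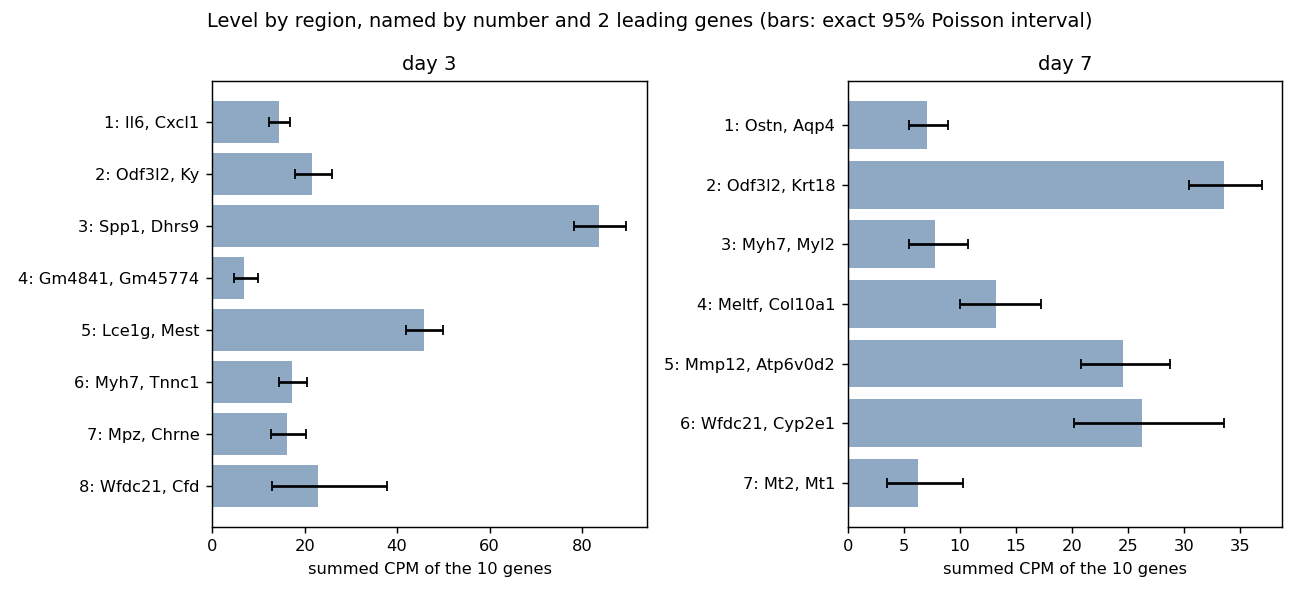
Summed level of the 10 genes, in CPM, in each region of the day 3 and day 7 sections (bars), with exact Poisson 95% intervals; regions are numbered within their section and carry 2 of their leading genes. At day 3 region 3 reaches 83.7 CPM and region 4 has 6.97 CPM, and at day 7 region 2 reaches 33.6 CPM.

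Other genes of the same pathways followed the set in part. In the counts that follow, for each list, genes with at most 3 UMIs at day 0 again entered only through the later day. The filter then all but fixed that they passed 2-fold, so they add no support to these counts. The lists, like the members, were chosen with earlier results of these data known. Of 13 NK cell receptor and factor genes, 12 entered the comparison at day 3, and 10 of them were at least 2-fold above day 0 (33.3% of all features) and 2 lower, while at day 7, 6 of 9 were higher (32.7%). Of the 10 higher at day 3, Klrb1c, Klrc1, Klrc2, Klre1, Klra4, Klra7, Klra8 and Eomes had fewer than 10 UMIs over days 0 and 1 together. Klrd1, which encodes CD94, gave 8, 60, 330 and 100 UMIs at days 0, 1, 3 and 7 and was thus, like Klrk1, higher by day 1. The activating receptor gene Cd244a gave 3, 27, 207 and 32 UMIs. Klrb1c, which encodes NK1.1, gave 0, 2, 64 and 29, and Klra8, of the Ly49 receptor family, gave 2, 4, 74 and 11. The 2 lower at day 3 were Tbx21, with 32, 10, 18 and 30 UMIs, and Itga2, with 58, 5, 30 and 57. Day 7 was at least 2-fold below day 3 for 8 of 12 (11.8% of all features).

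Of 12 T cell receptor and signalling genes, 9 were at least 2-fold higher at day 3 (33.3% of all features) and 1 lower. Trbc2, the beta chain constant region, gave 6, 7, 141 and 47 UMIs and Lck, the kinase of the receptor, 5, 4, 68 and 40. Cd28 was the 1 that was lower, with 274, 15, 78 and 129 UMIs, and it was highest in the uninjured section. Cd3e, Cd3g and Trac together gave 19 UMIs in that section, and the cell source of the Cd28 UMIs was not tested. Among T cell subset genes, Cd4 gave 18, 0, 59 and 203 UMIs and was thus highest at day 7. Cd4 is not restricted to T cells, and the paper used it together with Itgax to mark plasmacytoid dendritic cells. In contrast, Cd8a gave 4, 0, 34 and 11 and Cd8b1 gave 0, 4, 41 and 16, highest at day 3. Between days 3 and 7, Cd4 over Trac was 5.54-fold higher at day 7 (3.35 to 9.28). Foxp3, the factor of regulatory T cells, stayed under 10 UMIs in each section, with 9, 0, 7 and 3.

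The other effector genes split by day. Ctsw, a protease of cytotoxic lymphocytes, gave 5, 5, 89 and 40 UMIs, and Fasl gave 0, 0, 15 and 9. In contrast, 3 granzymes of the Gzmb cluster were highest at day 7, when Gzma and Gzmb were lower than at day 3. Gzmc gave 0, 0, 2 and 51 UMIs, Gzmd 0, 0, 0 and 14, and Gzme 0, 0, 12 and 35. Relative to Gzma, Gzmc was 67.4-fold (17.2 to 581) and Gzme 7.74-fold (3.76 to 17.0) higher at day 7 than at day 3, pairs again picked after their values had been seen.

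Chemokines and receptors of the same axis were higher earlier. Of 9 that entered at day 1, 7 were at least 2-fold above day 0 (17.4% of all features), and 10 of 11 were so at day 3 (33.3%). Ccl4, a chemokine of activated lymphocytes and macrophages, gave 0, 79, 408 and 117 UMIs. The chemokine receptor gene Ccr1 gave 36, 596, 2221 and 163. Cxcl9 alone of those named was highest in UMIs at day 7, with 168, 23, 312 and 515. Among cytokines, Ifng was at the counting limit throughout, with 2, 0, 2 and 1 UMIs, while Il15 gave 139, 72, 385 and 263 and Il18 gave 57, 66, 651 and 236. Of the ligands of NKG2D, Raet1d gave 1, 1, 45 and 5 UMIs and Ulbp1 81, 26, 237 and 139, both highest at day 3, while Raet1e, with 11, 5, 21 and 16, stayed under 2-fold above day 0 on each day.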

How the data were processed

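Visium libraries of 4 tibial muscle sections were analysed, 1 per day. The values deposited by the authors were raw UMI counts per feature and spot; Space Ranger 1.2.0 stands in the matrix headers, the study's methods give another version, and the submitters' processing notes name mm10. All deposited spots were used, and spot positions and images were not used here. No doublet caller was run, because a spot covers several cells.

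UMIs were summed per section and scaled to CPM in Python 3.11.15 with NumPy 2.4.6, pandas 2.3.3 and SciPy 1.17.1. A floor of 3 UMIs was used for counts of genes past a fold, for medians and for bounds. Spots were thinned to 2000 UMIs in 20 draws. Regions came from Leiden clustering in Scanpy 1.11.5 (2000 variable genes, 30 components, 15 neighbours, resolution 0.5). Other scalings used the factors of edgeR and DESeq2, with no test. Calculations were tested on simulated data.

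Named genes were the 10 members, genes of 19 lists, and, for days 3 and 7, the 5 features outside the lists with the largest CPM ratio in spots with a T cell receptor complex UMI, or with an Ncr1, Gzma, Gzmb or Prf1 UMI, to spots with no member UMI (at least 20 UMIs in those spots and 100 in the section). Members and lists were chosen with earlier results of these data known. Where the text says that pairs or yardsticks were picked after their values had been seen, they lie outside that plan.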

Additional observations from a re-analysis of the deposited data

How the results depend on the processing

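No paired analysis was possible because each day has 1 section. The 10-gene sum at day 3, 19.4-fold above day 0, was 13.3 with edgeR's TMM factors, 13.2 with DESeq2 size factors, 15.3 over a total that leaves out myofibre, mitochondrial and haemoglobin genes, and 14.6 without Ccl5. At day 7, 11.0-fold became 7.23, 7.09 and, without Ccl5, 7.91. TMM lowered the median over all features at day 3 from 0.58 to 0.03 (log2) and the share at least 2-fold higher from 33.3% to 19.8%, and at day 7 from 32.7% to 15.7%. The members' median log2 ratio at day 3 was 2.99 (TMM), 2.98 (DESeq2), 3.19 (reduced total) and 4.09 (floor of 1 UMI), and at day 7 1.96, 1.93 and, with that floor, 3.17. Without the filter, 5 rather than 2 members counted as at least 2-fold higher at day 1, but for the added Gzmb, Prf1 and Ncr1 both days stood at the floor, so their ratio was that of the section totals and says nothing of the genes. Day 7 over day 3 moved under none of 5 settings, 2 of which left out shallow spots or the richest spot, and 135 of 136 values of single members moved by less than their interval. The exception was Ccl5 at day 7, 12.1-fold with DESeq2 factors.

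Shares of spots rose with the UMIs kept: 0.641% (1000), 2.15% (4000) and 2.96% (no thinning) at day 1, 2.68%, 9.13% and 27.4% at day 3, 1.18%, 4.67% and 12.8% at day 7, and 2.85% without thinning at day 0. The member ratio of the day 3 macrophage-rich region was 2.44 at resolution 1 and 2.91 over the reduced total. Thinning before the spot classes were made left few spots and took 6 list ratios across 1: at day 3 in T cell receptor complex spots, B cell genes to 0.489 and mast cell genes to 1.10; at day 7, dendritic cell genes in those spots to 0.932, and in granule or Ncr1 spots B cell genes to 1.15, mast cell genes to 1.54 and MSC genes to 1.12. Of the other list ratios, 46 moved and 24 did not. In T cell receptor complex spots at day 3, thinning gave 3.44 for NK cell, 1.52 for monocyte/macrophage, 0.472 for adult myofibre and 4.67 for interferon-stimulated genes, and at day 7 1.41, 1.46, 0.787 and 1.87. In granule or Ncr1 spots it gave 1.60, 0.492 and 4.47 for the last 3 of these lists at day 3 and 1.52, 0.873 and 2.54 at day 7. The cause was not tested. The T cell receptor and signalling list summed over its 12 genes was 1.36-fold above day 0 at day 3 by CPM and 0.931 by TMM, so no direction is given for its sum. At day 1, the shallow section limits every gene but Ccl5 and Klrk1.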

Other observations

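Il2, the T cell growth factor, gave 124, 22, 145 and 522 UMIs at days 0, 1, 3 and 7 and was thus highest at day 7, whereas Il2rb, its receptor chain on T and NK cells, gave 11, 5, 180 and 69, highest at day 3. Ccr7, a homing receptor of naive T cells and mature dendritic cells, gave 2, 11, 113 and 221 UMIs, so that it was higher at day 7 than at day 3, opposite to the 10 genes described above. Cd247, the zeta chain of the T cell receptor complex, gave 86, 9, 70 and 77 UMIs and did not follow Cd3e and Cd3g. At day 0, Il2 and Cd247 gave 124 and 86 UMIs, where Cd3e, Cd3g and Trac together gave 19. Which cells the Il2 and Cd247 UMIs came from was not tested, so they are not read as T cell RNA.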
